A study of Mus musculus with 32 samples.

Results

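Hk1, Hk2, Pfkm, Pfkp, Pfkl, Aldoa, Aldoc, Eno2, Eno3 and Pkm are 10 mouse genes for enzymes of glycolysis, most of them known as the brain or the muscle form of their step. They were taken by gene symbol from a table of 27179 genes, and each was found there once. All 10 passed the filter on low values, Eno2 only with the help of its brain libraries. The study compared frozen with paraffin-embedded mouse organs by MeRIP-Seq, in which RNA fragments that carry a modified base are pulled down with an antibody and sequenced. The table used here holds 8 libraries made with the antibody against N6-methyladenosine (m6A), 1 for each of brain, heart, kidney and liver, either flash frozen or, as FFPE, fixed in 10% formalin before embedding in paraffin. RNA of every group was isolated with Trizol, after a deparaffinization step for FFPE, and sheared by ultrasound for 20 min. No group carried a transgene, a deletion or a drug in the labels, and the sources used here do not give strain, age or sex of the mice. The labels list 2 runs for each m6A group, but the table has 1 column a group, so no organ and preservation has a replicate of its own, and the labels do not tie frozen to FFPE samples by animal. Xist, a transcript of female cells, was low in every frozen library and abundant in every FFPE library, with values given beside the comparison of both.

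Glycolysis turns glucose into pyruvate. Hexokinase traps glucose in the cell as glucose 6-phosphate, phosphofructokinase commits it to the pathway, aldolase splits the sugar, enolase makes phosphoenolpyruvate, and pyruvate kinase turns that into pyruvate and makes ATP. Mammals have several genes for each of these steps, and organs use different ones: neurons live largely on glucose and carry the enolase encoded by Eno2, striated muscle carries the enolase encoded by Eno3, and liver has enzymes of its own (such as the pyruvate kinase encoded by Pklr) and can run the pathway backwards to make glucose.

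The promoters of 4 members are shown because these genes form the 2 sharpest organ patterns in the data: Eno2 and Aldoc stood high in brain, and Eno3 and Hk2 in heart. Each window is the 250 bases before an annotated transcription start in RefSeq (GRCm38.p6, the assembly of mm10), read 5′ to 3′ on the strand of the gene. Capitals mark matches on either strand to CANNTG (the E-box), ACGTG (the core of the hypoxia response element) or TATAAA (the TATA box). The windows lie at chr6:124769674-124769923 on the minus strand for Eno2, chr11:78322823-78323072 on the plus strand for Aldoc (the first of its 2 annotated starts), chr11:70656926-70657175 on the plus strand for Eno3 (which lies inside the annotated locus of that gene) and chr6:82774455-82774704 on the minus strand for Hk2.
Eno2: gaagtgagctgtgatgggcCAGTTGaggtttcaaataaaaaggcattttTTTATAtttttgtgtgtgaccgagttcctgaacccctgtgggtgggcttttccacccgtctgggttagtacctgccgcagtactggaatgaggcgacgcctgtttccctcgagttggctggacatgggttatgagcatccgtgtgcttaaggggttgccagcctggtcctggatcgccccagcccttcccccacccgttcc
Aldoc: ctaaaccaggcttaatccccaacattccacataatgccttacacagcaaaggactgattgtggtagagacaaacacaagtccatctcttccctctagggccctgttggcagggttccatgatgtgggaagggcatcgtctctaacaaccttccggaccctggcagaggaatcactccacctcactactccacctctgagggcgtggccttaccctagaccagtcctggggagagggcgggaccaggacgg
Eno3: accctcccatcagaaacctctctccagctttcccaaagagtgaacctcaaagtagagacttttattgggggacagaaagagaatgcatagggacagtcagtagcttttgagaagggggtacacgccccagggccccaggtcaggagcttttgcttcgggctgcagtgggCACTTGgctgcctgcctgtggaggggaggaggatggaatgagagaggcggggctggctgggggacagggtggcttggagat
Hk2: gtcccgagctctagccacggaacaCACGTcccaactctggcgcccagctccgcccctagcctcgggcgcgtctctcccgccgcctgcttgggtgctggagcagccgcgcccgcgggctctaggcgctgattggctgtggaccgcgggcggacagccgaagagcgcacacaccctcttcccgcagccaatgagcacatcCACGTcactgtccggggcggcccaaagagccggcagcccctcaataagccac
In these letters Hk2 held ACGTG at 226 and 52 bases before its start, Eno3 held CANNTG at 81, Eno2 held CANNTG at 231 and TATAAA at 201, and the Aldoc window held none of these motifs. Over the 18 windows that RefSeq gives for the 10 members, some of which overlap, 12 held CANNTG, 6 held ACGTG and 1 held TATAAA, while 0 matched the MEF2 site of muscle genes. Of all 32851 windows of 250 bases, 66.2% held CANNTG, 16.6% ACGTG, 12.4% TATAAA and 3.20% the MEF2 site. CACGTG matches both CANNTG and ACGTG and is counted under each. A match is a string of letters, and no factor was measured here.

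Levels are the authors' log2 normalized counts, that is log2 CPM, counts brought to a common library size, with library sizes that were scaled before. They cannot be set against each other between genes, because no transcript lengths were used, so each gene is compared only with itself across libraries. RNA that was not pulled down (input) was not analysed here, so a level measures a transcript within the m6A pulldown, where more RNA and more methylation are not separated. In whole organs, fewer cells of a type and less RNA per cell cannot be told apart. Total gene counts ran from 9603050 (FFPE brain) to 21523379 (frozen brain), and outside the ribosomal RNA genes from 3050241 (FFPE liver) to 8004550 (frozen brain). A log2 level of 3 counts was -3.29 in frozen brain and -0.86 in FFPE liver, so values below about 0 are firmest in brain. The organs matched their labels: 8 cardiomyocyte markers summed to 17543 (frozen) and 16464 (FFPE) scaled CPM in heart and to 26.9 to 207 elsewhere, and 10 neuron markers to 1130 and 832 in brain. In liver 8 hepatocyte markers summed to 29862 and 27449, and in kidney 8 nephron markers to 2805 and 3008. The hepatocyte markers also summed to 346 and 212 in frozen and FFPE kidney and to 7.25 and 3.78 in heart. In brain their sum was 364 frozen and 20.7 in FFPE, where Ttr had 12435 and 427 counts, so the 2 brain libraries differ there.

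Organs were compared with a limma fit on the 8 libraries, which modelled the level as an organ effect plus an effect of preservation. Each organ was set against the mean of the other 3, and p-values were adjusted with the Benjamini-Hochberg method over 14864 genes and called under 0.05. An organ's value rests on 1 frozen and 1 FFPE library, so these p-values say how alike frozen and FFPE tissue behaved, not how far animals differ.

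**Figure D1:**
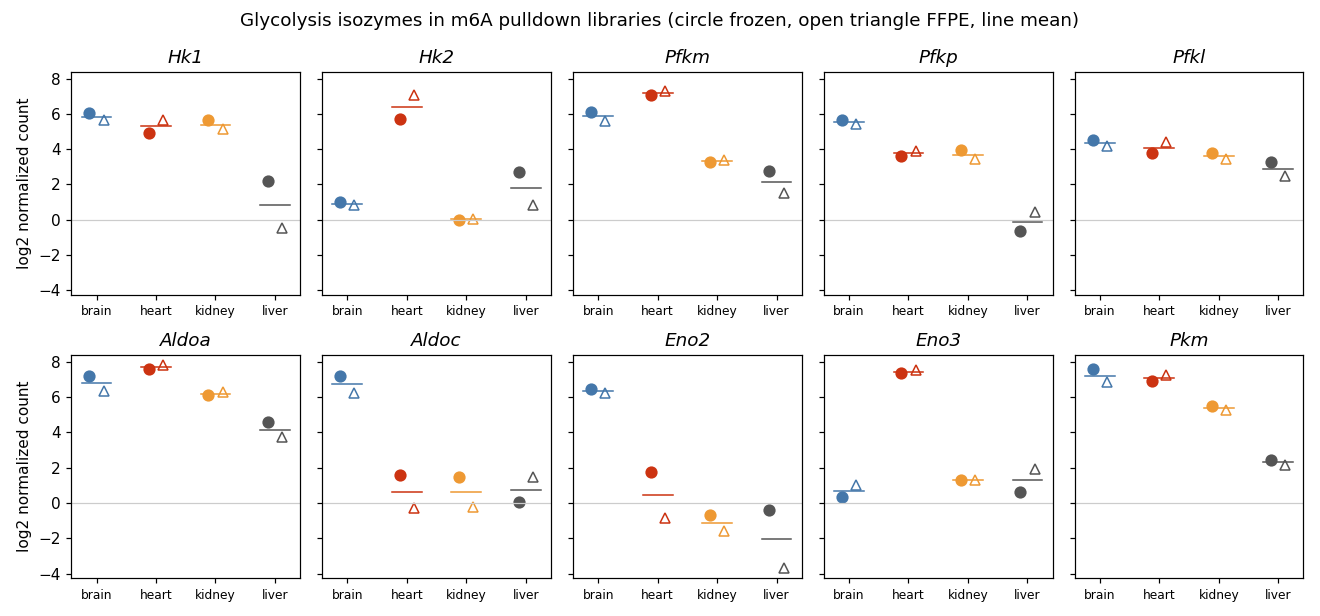
Log2 normalized count (vertical axis) of each of the 10 genes in each organ (horizontal axis), with frozen libraries as circles, FFPE libraries as open triangles and their mean as a line. Aldoc and Eno2 stand far above the other organs in brain, Hk2 and Eno3 in heart, and Pkm and Aldoa are high in both and lowest in liver.

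In brain, all 10 genes differed from the other organs: 8 were higher, beside 30.2% of all tested genes, and Hk2 and Eno3 were lower, beside 26.4%. The median difference of the 10 was 1.83, against 0.07 over all tested genes. In heart, 5 were higher (Hk2, Pfkm, Aldoa, Eno3 and Pkm; 15.9% of all tested genes) and Aldoc was lower (18.1%). In kidney, 5 were lower (Hk2, Pfkm, Aldoc, Eno2 and Eno3; 13.5%) and 0 higher (16.1%), and voom precision weights called 1 higher (Hk1). At an unadjusted limma p under 0.05 in either direction there were 6 members, beside 5993 of all 14864 tested genes. In liver, 9 were lower (27.2%) and 0 higher (20.1%). There, 9 members had an unadjusted limma p under 0.05 in either direction, beside 8010 of all 14864 tested genes. The median of the 10 was 1.63 for heart, beside -0.15 over all tested genes, -0.95 for kidney, beside 0.00, and -3.02 for liver, beside -0.18. With Eno2 of FFPE liver set to its bound of 3 counts, the liver median was -2.63.

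Eno2, the enolase gene of neurons, showed the widest brain difference. Eno2 (gene 13807, chromosome 6, 124760053 to 124769673, minus strand) had log2 levels of 6.47 in frozen and 6.23 in FFPE brain, 1.75 and -0.84 for heart, -0.70 and -1.58 for kidney and -0.42 and -3.66 for liver, where the last value stands for 0 counts. Both brain libraries lay far above every other library, and no other organ overlapped them. In the limma fit, Eno2 was 7.26 ± 0.60 (log2 ± SE, 2 libraries an organ) higher in brain, with an adjusted p of 2.55e-05. Only both brain libraries and frozen heart had Eno2 above log2 0, the filter's level. Eno2 thus entered the test through brain, and this p-value adds no support. With a stricter filter that asked for 4 libraries, 9 of the 10 members were tested and Eno2 was not. Against the level that 3 counts would give in FFPE liver, FFPE brain was at least 136-fold higher. Frozen heart, with 43 counts of Eno2 against 6 in FFPE heart, was the highest library outside brain. The 10 neuron markers summed to 40.3 scaled CPM in frozen heart and 17.4 in FFPE heart, or 3.57% and 2.10% of the brain sum in the same preservation, where Eno2 stood at 3.74% and 0.687% of its brain level. The FFPE heart sum rests mostly on Slc17a7, with 142 counts there and 57 in frozen heart, while the other neuron markers had 1 to 17. None of the 10 neuron markers was at 0 in either heart library, and 8 of 10 were at 0 in FFPE liver. Their part in the Eno2 reads of heart was not tested. The lower call of Eno2 in kidney (-2.73 ± 0.60, limma adjusted p 0.00991) is a difference from a mean that holds brain. It was lost without frozen kidney (-2.16). In the limma fit heart lay above kidney by 1.59 ± 0.74 (adjusted p 0.146) and kidney above liver by 0.90 ± 0.74 (adjusted p 0.417), and neither was called.

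Aldoc, the aldolase of brain, was high in brain and low, though above 0 counts, in every other library. Aldoc (gene 11676, chromosome 11, 78323073 to 78327781, plus strand) had log2 levels of 7.20 in frozen and 6.24 in FFPE brain, 1.57 and -0.29 for heart, 1.47 and -0.24 for kidney and 0.06 and 1.47 for liver. The 3 other organs overlapped each other fully, with 9 to 60 counts a library, and the lowest brain library stood above all of them. Aldoc was 6.05 ± 0.57 higher in brain by limma (adjusted p 4.71e-05). Its lower calls in heart (-2.06 ± 0.57, adjusted p 0.0227), kidney (-2.10 ± 0.57, 0.0238) and liver (-1.89 ± 0.57, 0.0237) are differences from a mean that holds brain. All 3 were lost without either brain library (adjusted p 0.0543 to 0.0638) and with no variance trend (adjusted p 0.0852 to 0.0942). The heart call was also lost without FFPE heart (-1.34, adjusted p 0.279), the kidney call without frozen kidney (-2.71, 0.0583) or FFPE kidney (-1.48, 0.296), and the liver call without frozen liver (-0.44, 0.358). Between heart, kidney and liver its differences were 0.15 or less in size, each with an SE of 0.70, and none was called. In frozen heart Aldoc stood at 2.0% of its frozen brain level, beside 3.57% for the neuron markers, and in frozen kidney at 1.87%, beside 0.238%. The astrocyte markers, of which 6 were listed, summed to 1021 and 931 in brain and also to 129 and 143 in heart and 97.8 and 80.2 in liver. Gja1, a gap junction gene of heart muscle too, stood at log2 6.42 and 7.09 in heart, and Slc1a2 at 6.13 and 6.19 in liver.

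Pfkp, the platelet-type phosphofructokinase subunit that brain also uses, was a graded brain gene. Pfkp (gene 56421, chromosome 13, 6579874 to 6649060) had log2 levels of 5.66 and 5.43 in frozen and FFPE brain, 3.61 and 3.92 for heart, 3.96 and 3.43 for kidney and -0.63 and 0.42 for liver. Heart and kidney overlapped, brain lay above both and liver, with 6 and 8 counts, far below. The limma difference for brain was 3.09 ± 0.29 (adjusted p 5.00e-05), and for liver -4.44 ± 0.29 (adjusted p 8.83e-06). Heart and kidney, at 0.72 and 0.63 above the mean of the others, were called higher without FFPE liver (0.92 and 0.83), heart also with median centring (0.88) and kidney with scaling outside ribosomal RNA (1.07). Pitrm1 overlaps the Pfkp locus by 285 bases and had 52 to 244 counts a library.

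Eno3, the enolase gene of striated muscle, was high in heart and low in the other organs. Eno3 (gene 13808, chromosome 11, 70653125 to 70662513, plus strand) had log2 levels of 7.35 in frozen and 7.52 in FFPE heart, with 2123 and 2130 counts. In the other libraries it had 0.35 and 1.02 for brain, 1.29 and 1.31 for kidney and 0.63 and 1.95 for liver, or 15 to 53 counts. Heart did not overlap any other organ, while liver overlapped brain and kidney, which did not overlap each other. By limma heart was 6.34 ± 0.29 higher (adjusted p 2.15e-06). The lower calls in brain (-2.66 ± 0.29, adjusted p 9.39e-05), kidney (-1.83 ± 0.29, 0.00178) and liver (-1.85 ± 0.29, 8.53e-04) are set against a mean that holds heart: without the heart libraries the brain difference was -0.61 (adjusted p 0.261) and the kidney and liver differences turned to 0.32 and 0.30. The kidney call was also lost without FFPE kidney (-1.49, adjusted p 0.0530). Among brain, kidney and liver, no pair differed in the limma fit. Eno3 shares 3675 bases of its locus with Pfn1, which had 127 to 344 counts a library. The sources used here do not say whether reads were counted by strand. Pfn1 had 127 and 169 counts in the heart libraries.

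Hk2, the insulin-responsive hexokinase of muscle and fat, was also a heart gene. Hk2 (gene 15277, chromosome 6, 82725025 to 82774454, minus strand) had log2 levels of 5.70 in frozen and 7.06 in FFPE heart, 1.0 and 0.84 for brain, -0.03 and 0.07 for kidney and 2.71 and 0.86 for liver. Heart lay above every other library, and frozen liver, with 65 counts, came next. Heart was 5.47 ± 0.51 higher by limma (adjusted p 9.11e-05) and kidney -3.0 ± 0.51 (adjusted p 0.00270). The brain difference of -1.81 ± 0.51 (adjusted p 0.0144) became 0.018 (adjusted p 0.979) without the heart libraries, and the kidney difference -1.33 (adjusted p 0.0915). The brain call of Hk2 was also lost without frozen brain (-1.82, adjusted p 0.0941) or FFPE brain (-1.79, adjusted p 0.106), with total-count scaling (-0.59, adjusted p 0.309), with scaling outside ribosomal RNA (-1.32, adjusted p 0.0523) and with no variance trend (adjusted p 0.0600). Liver, at -0.66 ± 0.51 (adjusted p 0.318), was called lower without frozen liver (-1.80, adjusted p 0.0163), with total-count scaling (-1.86, adjusted p 9.21e-04) and with scaling outside ribosomal RNA (-1.43, adjusted p 0.0379). Under both of these scalings all 10 members were lower in liver, where the median of all tested genes also moved, to -1.38 and -0.95. Skeletal muscle markers, 8 genes, summed to 205 and 240 in heart and to 1.26 to 3.15 elsewhere. That sum includes Ckm, which heart itself makes.

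Pfkm, the muscle-type phosphofructokinase subunit, was high in heart and brain together. Pfkm (gene 18642, chromosome 15, 98092589 to 98132447) had log2 levels of 7.05 and 7.32 in frozen and FFPE heart, 6.13 and 5.59 for brain, 3.27 and 3.39 for kidney and 2.75 and 1.55 for liver. The organs formed 4 separate steps without overlap. Each step was called in the limma fit: heart above brain by 1.32 ± 0.33 (adjusted p 0.0106), brain above kidney by 2.53 ± 0.33 (3.24e-04) and kidney above liver by 1.18 ± 0.33 (0.0258). Kidney was also called lower than the mean of the other organs (-1.73 ± 0.27, adjusted p 0.00167), but not without the heart libraries (-0.67, adjusted p 0.0955). Senp1 overlaps the Pfkm locus by 981 bases and had 32 to 165 counts a library.

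Pkm, whose splice forms M1 and M2 serve muscle, brain and dividing cells and are not told apart here, was high in brain and heart. Pkm (gene 18746, chromosome 9, 59656576 to 59679372) had log2 levels of 7.59 and 6.83 in frozen and FFPE brain, 6.94 and 7.28 for heart, 5.47 and 5.29 for kidney and 2.47 and 2.17 for liver. Brain and heart overlapped and differed by 0.10 ± 0.24 (limma, adjusted p 0.762), kidney lay lower without overlap, and liver lower again. Heart was above kidney by 1.73 ± 0.24 (adjusted p 8.94e-04) and kidney above liver by 3.06 ± 0.24 (adjusted p 5.46e-05).

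Aldoa, the aldolase of muscle and of most cells, varied least among the genes high in heart. Aldoa (gene 11674, chromosome 7, 126795234 to 126800994) had log2 levels of 7.20 and 6.36 in frozen and FFPE brain, 7.59 and 7.81 for heart, 6.11 and 6.27 for kidney and 4.59 and 3.72 for liver. Heart stood above brain, by 0.92 ± 0.29 in the limma fit (adjusted p 0.0305). Brain and kidney did not differ beyond their spread (0.59 ± 0.29, adjusted p 0.130), although both brain libraries lay above both of kidney, and liver lay below kidney by 2.03 ± 0.29 (adjusted p 0.00111). The brain difference from the other organs, 0.76 ± 0.24 (adjusted p 0.0228), was lost when each library was centred on its median (adjusted p 0.0935), without frozen brain (0.43, adjusted p 0.312) without frozen kidney (0.66, adjusted p 0.0501) and with no variance trend (adjusted p 0.104). Aldoart1 and Aldoart2, retrogenes close to Aldoa in sequence, had 0 to 30 and 0 to 1 counts a library.

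Hk1, the hexokinase that binds mitochondria and is the main form in brain, was high in brain, heart and kidney. Hk1 (gene 15275, chromosome 10, 62268855 to 62379920) had log2 levels of 6.03 and 5.67 in frozen and FFPE brain, 4.91 and 5.67 for heart, 5.64 and 5.13 for kidney and 2.18 and -0.49 for liver. Only liver stood apart, with 45 counts frozen and 4 in FFPE. Hk1os, an antisense transcript within the locus, had 0 to 5 counts a library. By limma liver was -4.67 ± 0.51 (adjusted p 1.21e-04), while heart and kidney differed from brain by less than 1 SE (adjusted p 0.494 and 0.578). The brain call of 2.01 ± 0.51 (adjusted p 0.00899) is set against a mean that holds liver, and it was lost without frozen brain (2.23, adjusted p 0.0529) or FFPE brain (1.79, adjusted p 0.109) and with no variance trend (adjusted p 0.0551). Heart and kidney, at 1.26 and 1.39 above the mean of the others (adjusted p 0.0902 and 0.0733), were called higher without frozen liver (1.70 and 1.83) or FFPE liver (0.82 and 0.95), heart also without frozen heart (2.24) and kidney without FFPE heart (1.71). Voom precision weights called both (1.05 and 1.25). Kidney alone was called with quantile normalization (1.43), total-count scaling (1.91), scaling outside ribosomal RNA (1.83) and 2 counts added (1.31).

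Pfkl, the liver-type subunit, was the flattest of the 10 and was lowest in liver. Pfkl (gene 18641, chromosome 10, 77986947 to 78009807) had log2 levels of 4.51 and 4.18 in frozen and FFPE brain, 3.76 and 4.40 for heart, 3.80 and 3.43 for kidney and 3.27 and 2.49 for liver. Neighbouring organs in this order overlapped or differed by no more than 0.74 ± 0.32 (kidney above liver, limma adjusted p 0.120). Liver was -1.14 ± 0.26 against the mean of the others (adjusted p 0.00653) and brain 0.82 ± 0.26 (adjusted p 0.0234), and the brain call was lost under quantile normalization (adjusted p 0.0725) and median centring (adjusted p 0.0994). The brain call was also lost without frozen brain (0.74), FFPE brain (0.90) or FFPE kidney (0.79) and with no variance trend (adjusted p 0.0869), and the liver call without FFPE liver (-0.76, adjusted p 0.103). Heart, at 0.46 ± 0.26, was called higher without frozen heart (1.03, adjusted p 0.0210).

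**Figure D2:**
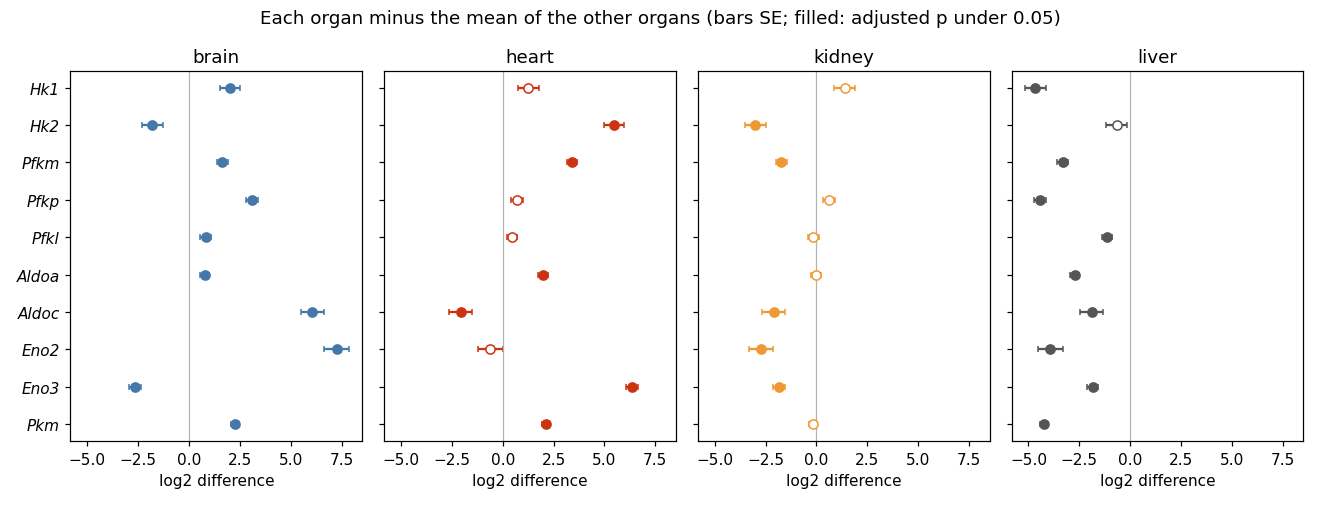
Log2 difference (horizontal axis) of each organ from the mean of the other organs for the 10 genes, in a panel for each organ, with bars of 1 SE from the limma fit and filled points where the adjusted p was under 0.05. Eno2 (7.26) and Aldoc (6.05) lead in brain, Eno3 (6.34) and Hk2 (5.47) in heart, and every gene lies below 0 in liver.

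Over the organ pairs, the members separated brain and heart in both directions. Between brain and heart, 3 were higher in brain (Pfkp, Aldoc and Eno2; 26.3% of all tested genes) and 4 in heart (Hk2, Pfkm, Aldoa and Eno3; 19.1%). Against kidney, 5 were higher in brain (24.6%, and 23% lower) and 5 in heart (13.4%, and 16.8% lower). Against liver, 8 were higher in brain (32.3%, and 24.9% lower), 9 in heart (22%, and 19.5% lower) and 5 in kidney (17%, and 11.5% lower), and in none of these 5 pairs was a member lower. Of 60 pairs of a gene and an organ pair, 39 were called. Over all tested genes, calls in either direction were 45.5% for brain and heart, 47.6% for brain and kidney and 57.1% for brain and liver. They were 30.2% for heart and kidney, 41.5% for heart and liver and 28.6% for kidney and liver.

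Ratios of 2 isozymes within 1 library do not depend on how the library was scaled, though without lengths only their change between libraries can be read. The log2 ratio of Eno2 to Eno3 counts was 6.12 in frozen and 5.21 in FFPE brain and -5.61 and -8.36 in heart, a change from brain to heart of 11.73 (frozen) and 13.57 (FFPE) on the log2 scale. Kidney had -1.99 and -2.90, and liver -1.05 and -5.61, where FFPE liver rests on 0 counts of Eno2. The ratio moved in the same direction between brain and heart in frozen and in FFPE tissue. The ratio of Hk1 to Hk2 was 5.03 and 4.83 in brain, 5.67 and 5.06 in kidney, -0.79 and -1.39 in heart and -0.53 and -1.35 in liver. Brain and kidney thus lay together, and heart and liver together, although liver had few counts of either gene and heart many of both. The ratio of Aldoa to Aldoc was 0.00 and 0.12 in brain and 2.25 to 8.10 in the other libraries. Among the phosphofructokinase subunits, Pfkm over Pfkl was 1.62 and 1.41 in brain, 3.29 and 2.92 in heart, and between -0.94 and -0.04 in kidney and liver. Pfkp over Pfkl was 1.14 and 1.24 in brain, -0.15 and -0.48 for heart, 0.16 and 0.00 for kidney and -3.89 and -2.06 for liver. The ratio of the muscle to the liver subunit was thus highest in heart and next in brain, and that of the platelet to the liver subunit highest in brain and lowest in liver. These ratios are values without a test.

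**Figure D3:**
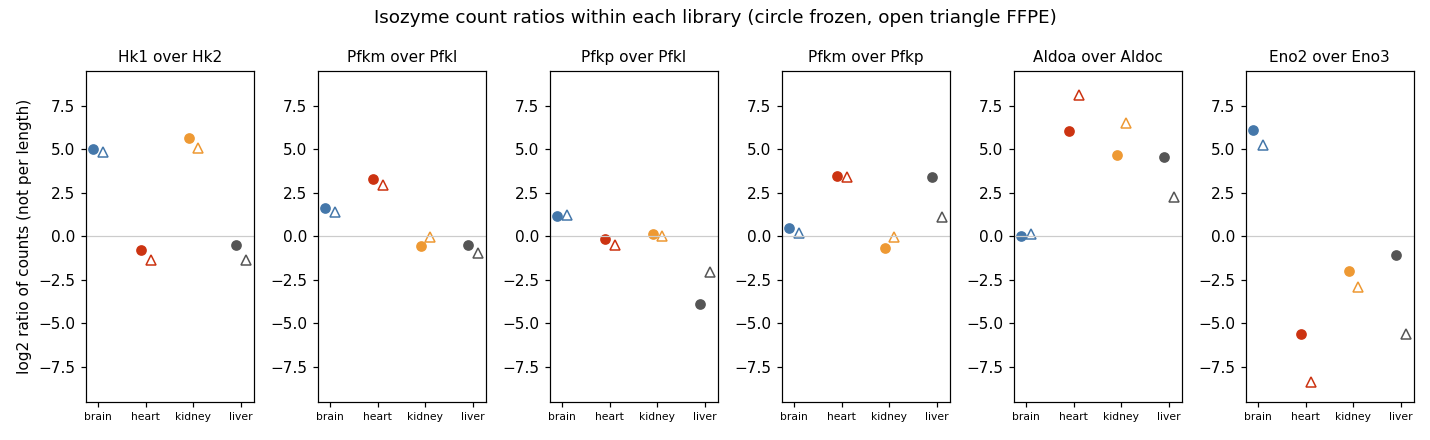
Log2 ratio of the counts of 2 isozyme genes in the same library (vertical axis, not per length) for 6 pairs, by organ, with circles for frozen and open triangles for FFPE libraries. Eno2 over Eno3 runs from 6.12 in frozen brain to -8.36 in FFPE heart, and Hk1 over Hk2 places kidney beside brain.

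Between FFPE and frozen tissue over the 4 organs, 0 of the 10 genes were called by limma, beside 0.00673% of all tested genes higher and 0% lower. At an unadjusted p under 0.05 there was 1 member, Eno2 (-1.74 ± 0.52, adjusted p 0.165), and 2769 of all 14864 genes. None of the 18 alternative settings called a member either. Within an organ, where each side is 1 library and no test is possible, the difference had a 95% counting interval (exact, from the counts of both libraries) below 0 for 8 members and above 0 for 1 in brain. The same counts were 2 and 7 for heart, 5 and 1 for kidney, and 5 and 2 for liver. Over all tested genes the interval lay below 0 for 26.9% and above for 19.6% in brain, 18.2% and 21.5% for heart, 16.6% and 21.5% for kidney, and 14.5% and 19.0% for liver. These intervals narrow as counts rise, and genes were not matched on counts. The median member difference was 0.28 in heart, beside 0.01 over all tested genes. It was -0.35 (beside -0.08) for brain, -0.28 (beside 0.02) for kidney and -0.82 (beside -0.01) for liver. Aldoc and Eno2 both stood lower in FFPE than in frozen heart, with 9 against 38 and 6 against 43 counts. The summed neuron and oligodendrocyte markers also stood lower there, at 17.4 against 40.3 and 6.10 against 21.7 scaled CPM. The astrocyte sum stood higher, at 143 in FFPE against 129 in frozen heart. Of the astrocyte markers, only Gja1 was higher in FFPE heart (1589 against 1114 counts), while Slc1a2, for example, was lower (35 against 452). Among the neuron markers, Slc17a7 (142 against 57 counts) and Stmn2 (17 against 12) stood higher in FFPE heart instead. The part of these markers in Aldoc and Eno2 was not tested. Erythroid markers, 4 genes with counts, summed to 224 in FFPE heart and to 3.40 to 39.8 in the other libraries. Xist, which is made from the inactive X chromosome, had 5 to 26 counts in the frozen libraries and 2693 to 6685 in the FFPE libraries, so preservation and the sex of the animals cannot be told apart.

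**Figure D4:**
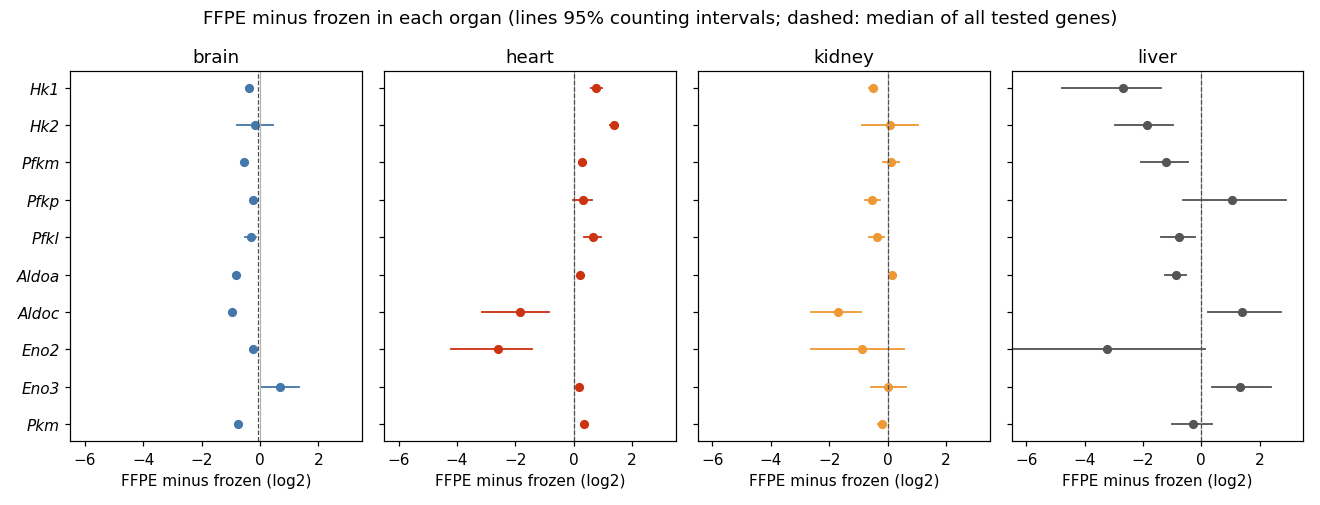
FFPE minus frozen log2 level (horizontal axis) of each of the 10 genes in each organ, with 95% counting intervals as lines and the median of all tested genes dashed; the interval of Eno2 in liver, with 0 counts in FFPE, runs off the axis. Most members lie below 0 in brain and above 0 in heart.

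Other enzymes of the pathway were read from 5 lists of 55 genes, of which 48 were tested. The shares of all tested genes called higher and lower were 30.2% and 26.4% in brain, 15.9% and 18.1% for heart, 16.1% and 13.5% for kidney, and 20.1% and 27.2% for liver, and each list count stands beside these. Among 15 tested enzymes of glycolysis, brain had 0 higher and 5 lower, heart 2 and 5, kidney 4 and 1, and liver 7 higher and 3 lower. Their median difference was -0.32 in brain, 0.09 for heart, 0.43 for kidney and 0.78 for liver, beside 0.07, -0.15, 0.00 and -0.18 over all tested genes. Pklr, the pyruvate kinase gene of liver, differed between organs. In the limma fit it was higher in liver by 8.09 ± 0.78 (adjusted p 5.95e-05) and in kidney by 3.14 ± 0.78 (adjusted p 0.0165). It was lower in brain (-7.61 ± 0.78, adjusted p 7.32e-05) and heart (-3.62 ± 0.78, adjusted p 0.00758). Pklr had 0 counts in both brain libraries and in FFPE heart, and 6 in frozen heart. All of these differences use the level that stands for 0 counts, so their sizes are rough. Liver also had more Ldha, a lactate dehydrogenase subunit (1.63 ± 0.25, adjusted p 7.45e-04), and less Ldhb, the subunit of heart (-5.79 ± 0.35, adjusted p 5.73e-06). Heart had more Pgam2, the muscle phosphoglycerate mutase (6.29 ± 0.39, adjusted p 1.18e-05), and less Pgam1 (-2.33 ± 0.48, adjusted p 0.00638) and Eno1 (-2.38 ± 0.36, adjusted p 0.00124), the forms of most tissues. Tpi1 and Gapdh, steps with a single somatic gene, were called in no organ, with differences from -0.40 to 0.54.

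Of 6 tested transporters, brain had 2 higher and 4 lower in the limma fit. Slc2a1, the glucose carrier of the blood-brain barrier, was 1.76 ± 0.37 higher (adjusted p 0.00329), and Slc2a3, that of neurons, 4.14 ± 0.44 (adjusted p 9.09e-05). For Slc2a1 kidney came close, with frozen and FFPE log2 levels of 3.39 and 3.52 beside 4.51 and 3.72 in brain. Against kidney alone, 1 of the 6 was called higher in brain, which was Slc2a3. Heart had more Slc2a4, the insulin-responsive carrier (5.54 ± 0.50, adjusted p 8.04e-05), and Slc16a1, with 3 lower. Liver had 2 higher, among them Slc2a2 (7.37 ± 0.65, adjusted p 3.71e-05), and 2 lower, and kidney 2 and 2. The 5 regulators of phosphofructokinase split in brain (2 higher, 1 lower) and heart (2 and 1), and in kidney 3 were lower. The median over the transporters was -1.33 in brain and -0.86 in heart, and over the regulators 0.36 and 1.61.

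Pyruvate dehydrogenase, its kinases and its phosphatases gave 8 of 10 genes higher and 0 lower in heart. Among them were Pdk4, a kinase that switches the enzyme off (limma 4.77 ± 0.55, adjusted p 3.01e-04), and Pdha1 (1.95 ± 0.18, adjusted p 9.57e-05). The heart libraries were far apart for Pdk4, with log2 levels of 9.78 frozen (11434 counts) and 6.39 in FFPE (974 counts). The median of these 10 was 1.51 in heart, -1.05 for brain and -0.68 for liver. In brain 2 were higher and 7 lower, and in liver 2 higher and 6 lower. Of 12 genes of other isozyme families, brain had 5 higher and 5 lower, with Ckb, the brain creatine kinase, higher by 4.63 ± 0.18 and Ckm, the muscle form, at -4.47 ± 0.45. Heart had 6 higher and 3 lower by limma, with Ckm at 8.93 ± 0.45 (adjusted p 3.70e-06) and Ckb at -0.68 ± 0.18 (adjusted p 0.0201). Ckm was above log2 0 only in the heart libraries, so it entered the test through heart, and its p-value adds no support. Pygb, the glycogen phosphorylase named for brain, was higher in heart (4.29 ± 0.16, adjusted p 1.13e-06) and in brain (1.22 ± 0.16, adjusted p 3.06e-04), with heart above brain (brain minus heart -2.31 ± 0.20, adjusted p 6.01e-05). In liver 9 of the 12 were lower, and their median was -2.92 there, 2.13 for heart and 0.31 for brain. Between FFPE and frozen tissue 0 of the 48 were called.

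**Figure D5:**
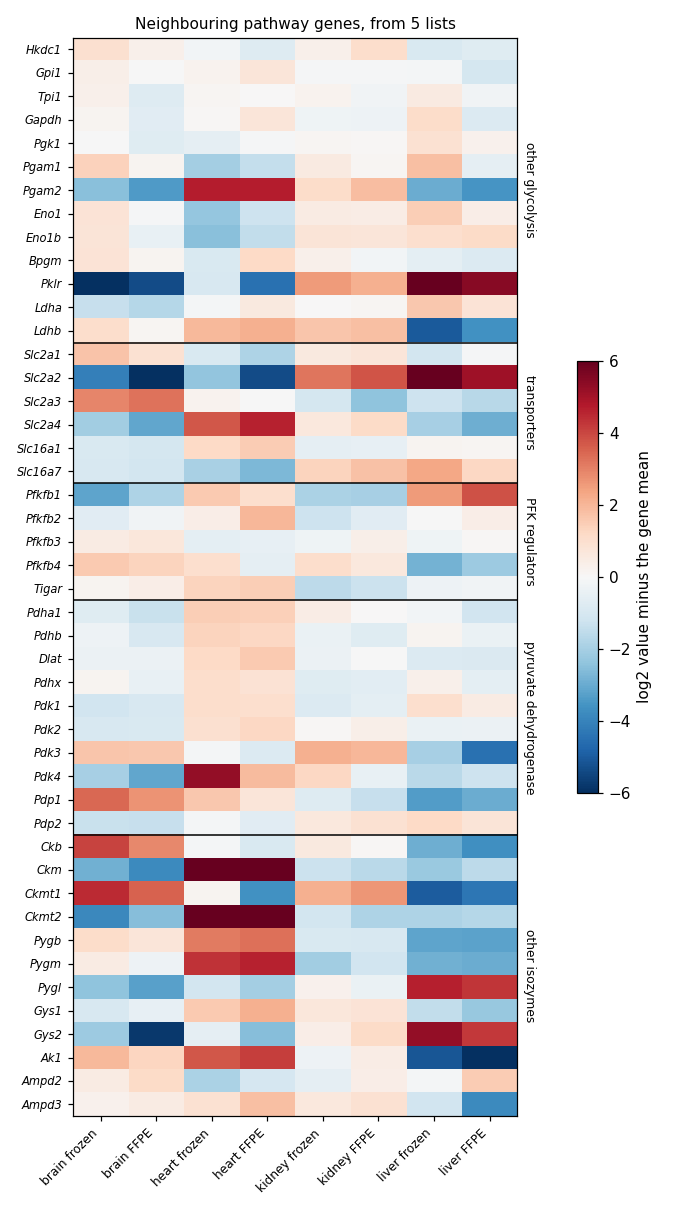
Log2 level minus the mean of that gene over the 8 libraries (colour, clipped at 6 in either direction) for 46 tested genes of the 5 lists (rows, grouped by list), in each library (columns). Pklr, Slc2a2 and Pygl are red in liver, Pgam2, Ckm and Ckmt2 in heart, and Slc2a3, Ckb and Ckmt1 in brain.

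The genes whose profile over the 8 libraries lay nearest to each member were found among 4437 tested genes of mean log2 level 3 or more, by the root mean square difference of log2 values after each gene's own mean was removed. Eno2 had Kif5a (0.87), Mbp and Map1a, and Aldoc had Prkcb (0.81), Ncald and Ncdn. Eno3 had Tpm1 (0.81) and Myom1, and Hk2 had Dmpk (0.95), Atp2a2 and Abcc9. Pfkm had Rcan2 (0.45), Pcdh7 and Pygb, and Pfkp had Tspan3 (0.46), Mapt and Dnm3. The nearest matches of all belonged to Pfkl, with Exoc3 (0.17), and to Aldoa, with Slc25a12 (0.26), the mitochondrial aspartate and glutamate carrier. Pkm had Fry (0.39) and Hk1 had Rab11fip5 (0.45). Across the 3 nearest genes of each member, not all of which are named, Pearson's r over the 8 libraries was 0.90 to 0.99, which describes libraries that share organ, depth and scaling.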

How the data were processed

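MeRIP-Seq libraries pulled down with an m6A antibody were analysed from 4 organs of mice (brain, heart, kidney, liver), each frozen or FFPE. Per the submitters' processing notes, HISAT2, featureCounts and limma were used against mm10, with versions, settings and strand not given in the sources used here. The authors deposited log2 normalized counts of 27179 genes for the 8 libraries. Judged from their steps, these are log2 CPM after 0.5 was added to every count, with library sizes rescaled by the authors, and whole counts were recovered for 100.0% of values (tolerance 0.001, taken relative to 10000 where counts were larger). The table's name is the only sign that its columns hold m6A. Another table's 8 columns could be matched to no sample in the labels and stayed unused.

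Genes with log2 above 0 in at least 2 libraries were tested with limma 3.58.1 in R 4.3.3 (organ and preservation terms, 3 residual degrees of freedom, eBayes with trend, Benjamini-Hochberg over 14864 genes). The fit was also checked on simulated log2 values with normal error, and counts were not simulated. Of the gene identifiers, 25275 matched RefSeq's annotation of GRCm38.p6, which gave coordinates and promoters for all 10 members. All 10 members are named, with genes from the 3 nearest profiles of each and from the 5 lists, some of which are not reported here. Members, lists and markers were chosen with earlier results of these data known. Isozyme ratios were planned per kilobase of exon, but no lengths were used, so they are count ratios. The alternatives changed scaling, the added count, the filter, the variance model and the libraries. Intervals and floors (3 counts) cover counting error only.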

Additional observations from a re-analysis of the deposited data

Results flagged for a closer look

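For 7 of the 10 genes, the FFPE and frozen libraries differed in opposite directions in 2 organs, with counting intervals that left out 0 in each. Each organ has 1 library a side, so the differences between organs were not tested. The same pattern held for 2470 of all 14864 tested genes (16.6%), and these intervals, which cover counting error only, narrow as counts rise. The 7 values below are differences of FFPE minus frozen log2 levels.

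Heart was higher in FFPE and liver lower for 5 genes. Hk1 had 0.76 in heart and -2.67 in liver, which are 3.44 apart, and Hk2 had 1.36 and -1.85, which are 3.21 apart. For Pfkm the values were 0.27 and -1.20 (1.47 apart), for Pfkl 0.64 and -0.78 (1.42 apart), and for Aldoa 0.22 and -0.87 (1.08 apart). Aldoc went the other way, with 1.40 in liver and -1.86 in heart (3.26 apart), from 9 to 38 counts a library. Pkm had 0.34 in heart and -0.76 in brain (1.09 apart). In liver, Hk1 had 45 counts frozen and 4 in FFPE, and Hk2 had 65 and 11.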

How the results depend on the processing

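No called difference of a member changed sign under another scaling of the libraries, although scaling by total gene counts moved the median difference of all tested genes to 1.29 for brain, -0.69 for heart, 0.52 for kidney and -1.38 for liver, and scaling by counts outside ribosomal RNA genes to 0.56, -0.30, 0.44 and -0.95. Calls higher and lower over all tested genes were, for brain, heart, kidney and liver in turn, 4491 and 3928, 2370 and 2691, 2399 and 2011, and 2981 and 4042. They became 8234 and 1558, 1107 and 3508, 2822 and 1013, and 1143 and 8628 with total counts, and 6502 and 2815, 1994 and 3262, 4326 and 1247, and 1630 and 8007 outside ribosomal RNA. Members called higher in kidney, 0 as reported, were 1 with quantile normalization, total counts, 2 counts added and voom precision weights, 2 with scaling outside ribosomal RNA and 3 without both heart libraries. Members lower in brain, 2 as reported, were 1 with total counts, scaling outside ribosomal RNA and no variance trend, and 0 without both heart libraries. Without a trend 5 were higher in brain (8 as reported) and 0 lower in heart (1 as reported). Without both heart libraries 2 were lower in kidney (5 as reported), and 5 differences that were called under 1 setting or the other turned: Hk2 in brain 0.018, Aldoa in kidney 0.72, Eno3 in kidney 0.32, Pkm in kidney 0.62 and Eno3 in liver 0.30. In each of these the mean that the organ is set against then no longer holds heart. Leaving out 1 library at a time gave 5 to 8 members higher and 1 to 2 lower in brain (5 higher without frozen brain), 5 to 7 higher and 0 to 1 lower in heart (0 without either brain library or FFPE heart), 0 to 2 higher (1 without FFPE heart or frozen liver, 2 without FFPE liver) and 3 to 5 lower in kidney (3 without either kidney library), 0 higher and 8 to 9 lower in liver, 37 to 42 of the pairs of a gene and an organ pair, and 0 for FFPE against frozen. Of the single-gene values, 822 stayed on their side of the threshold (some that were called under neither setting changed sign), 37 lost a call, 21 gained one and 5 turned; the cause of the others was not tested. No paired analysis was possible because the table holds 1 column for each group. The longest-transcript length was not run, as no lengths were used. In FFPE liver a level of 3 counts is -0.86, so low genes there have only rough values.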
